A study of Homo sapiens with 6 samples.

Results

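Expression of 8 genes was examined: the chitinase genes and chitinase-like genes of the human genome's glycoside hydrolase family 18 (GH18), and PIFO, an unrelated gene that lies among them. CHI3L2, CHIA, PIFO and OVGP1 lie side by side on chromosome 1 within 200.1 kb and are called the cluster here. CHI3L1, CHIT1, CTBS and CHID1 are relatives elsewhere in the genome. The 8 genes were picked by symbol from the 28395 genes of the table, and they were chosen from this same comparison of erlotinib with DMSO, in which CHIA showed the highest rise. Their differences between the groups are therefore a description, with no test.

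HCC827, an established line from a human lung adenocarcinoma, depends on an EGFR made active by a deletion, and erlotinib inhibits the EGFR kinase. RNA-seq libraries came from cells given the vehicle DMSO (3 libraries, numbered 1 to 3) or 1 μM erlotinib (3 libraries, called 4 to 6 after the columns of the table), both sampled at 24 h, to ask which transcripts change when EGFR is inhibited. Reads on genes totaled 20858083, 24641819 and 21172884 in the DMSO libraries and 21944007, 20760204 and 21678395 in the erlotinib libraries. Values are given as signal, which is reads divided by a size factor of each library (0.882 to 1.08). The study states in general that its experiments were repeated independently, but no source used here says that of these libraries, so errors and p-values measure only the spread between these samples. Epithelial markers were abundant, with KRT7 at 123686 ± 7643 in DMSO and 79897 ± 2922 in erlotinib libraries (signal, mean ± SD, n = 3). Of 7 such markers 5 were lower with erlotinib (limma), where 35.4% of all genes tested were lower, at log2 differences of −1.25 for KRT18, −0.83 for KRT8, −0.81 for EGFR, −0.63 for KRT7 and −0.39 for KRT19, while EPCAM and CDH1 did not pass.

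GH18 enzymes cut chains of N-acetylglucosamine, the sugar of chitin and of the chitobiose core of N-linked glycans, and a glutamate in a conserved stretch of the active site donates the proton. Mammals make active chitinases (CHIA, CHIT1), a lysosomal chitobiase (CTBS) and secreted relatives that bind sugar without cutting it (CHI3L1, CHI3L2, OVGP1). In the lung these proteins are best known from macrophages and from airway epithelium in type 2 inflammation, where interleukin-13 acting through STAT6 raises CHIA.

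The stretches of 30 bases that encode this active-site segment are printed to show which members carry the glutamate codon. They were read from GENCODE release 44 transcripts on GRCh38, 5′ to 3′ on the coding strand, and the capitals mark the codon at the catalytic position.
CHIA: gacgggctggactttgactggGAGtaccct
CHIT1: gacggccttgaccttgactggGAGtaccca
CTBS: gatggaattaatatagatataGAGcaagaa
CHI3L1: gatgggctggaccttgcctggCTCtaccct
CHI3L2: gatggactggatgtaagctggATCtaccca
OVGP1: gatggtcttgaccttttcttcTTAtatcct
They lie at chr1:111315352-111315381 (+) in CHIA, chr1:203223549-203223578 (−) in CHIT1 and chr1:84570021-84570050 (−) in CTBS, each within 1 coding exon. Those of CHI3L1, CHI3L2 and OVGP1 are at chr1:203183680-203183709 (−), chr1:111234989-111235018 (+) and chr1:111423597-111423626 (−). The codon encodes glutamate in CHIA, CHIT1 and CTBS, leucine in CHI3L1 and OVGP1, and isoleucine in CHI3L2. Of the 30 bases, CHIT1 shared 26 with CHIA, CHI3L1 shared 24, CHI3L2 shared 19, OVGP1 shared 18 and CTBS shared 13. CHID1 had a gap in the alignment at this stretch. Over the whole coding sequence, the translated identity to CHIA was 53.6% for CHIT1, 51.3% for CHI3L1, 50.1% for CHI3L2, 45.1% for OVGP1, 26.4% for CTBS and 23.0% for CHID1. So the cluster holds 1 gene with the catalytic codon, CHIA, and a pair without it, CHI3L2 and OVGP1.

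CHIA, which encodes acidic mammalian chitinase (Entrez 27159, chr1:111290851-111320563, + strand), was close to undetected in DMSO and abundant in every erlotinib library. Its signal was 3.40, 1.86 and 6.42 in the DMSO libraries and 1000.3, 1003 and 961 in the erlotinib libraries. The groups did not overlap, and the erlotinib libraries lay close together while the DMSO libraries rested on few reads. The mean was 3.89 ± 2.32 with DMSO and 988 ± 23.3 with erlotinib (SD, n = 3 each). In reads these are 3, 2 and 6 against 1084, 1013 and 1027. The ratio of summed reads, corrected by the size factors of the libraries, was 260, with an exact 95% interval of 145 to 521 that covers counting error only. On the log2(signal + 1) scale the difference was 7.77 (SE 0.29), rank 1 among the 14215 genes tested. Since RNA was taken from whole cultures, more RNA per cell and more cells that express a gene cannot be told apart, here or below.

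PIFO (Entrez 128344, named CIMAP3 in RefSeq, chr1:111324663-111353017, + strand) encodes pitchfork, a protein of the ciliary base that acts with the kinase AURKA when a primary cilium is taken down. It is the gene next to CHIA, 4.1 kb away in the RefSeq annotation. As a gene unrelated to GH18, it was not searched for the active-site stretch. Its signal was 11.3, 5.57 and 9.63 with DMSO and 415, 389 and 376 with erlotinib. As for CHIA, a near-absent level in all 3 DMSO libraries stood against a clear level in all 3 erlotinib libraries, with no overlap. The means were 8.85 ± 2.96 and 394 ± 19.9, and the log2 difference was 5.37 (SE 0.27), rank 10 of all genes tested. Summed reads were 25 against 1245, and their ratio corrected by the size factors was 45.6 (exact 95% counting interval 30.7 to 70.7).

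CHI3L2 and OVGP1 flank the pair and started from a higher level. CHI3L2 (Entrez 1117, chr1:111227659-111243440, + strand) encodes YKL-39, a secreted lectin first known from cartilage cells. Its signal was 26.1, 36.2 and 23.5 with DMSO and 136, 170.3 and 161 with erlotinib, a log2 difference of 2.42 (SE 0.25). OVGP1 (Entrez 5016, chr1:111414319-111427735, − strand) encodes oviductin, a glycoprotein that the oviduct secretes and that coats the egg. Its signal was 78.3, 82.7 and 86.7 with DMSO and 452, 485 and 472 with erlotinib, a log2 difference of 2.49 (SE 0.14). For both genes every erlotinib library lay above every DMSO library. The ratios of the group means were 5.44 for CHI3L2 and 5.69 for OVGP1, and their ranks among rises were 544 and 503, so both were far from the top where CHIA and PIFO stood. The plot of signal in each library shows these patterns beside the relatives elsewhere.

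**Figure D1:**
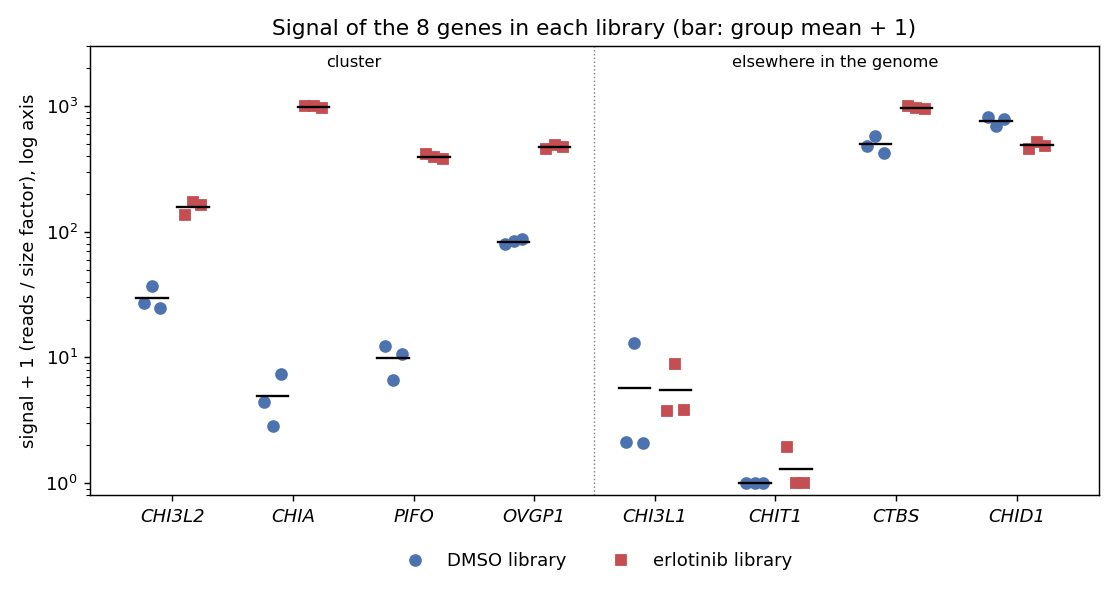
Signal + 1 (log axis) of the 8 genes in each of the 6 libraries, circles for DMSO and squares for erlotinib, with a bar at each group mean + 1 and a dotted line between the cluster and the genes elsewhere. All 4 cluster genes and CTBS are higher in every erlotinib library, CHID1 is lower in every one, and CHI3L1 and CHIT1 lie near the bottom in both groups.

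Levels of different genes were compared per kilobase of merged exons. With DMSO the order within the cluster was OVGP1 (32.8 signal per kb), CHI3L2 (8.69), PIFO (2.24) and CHIA (0.839). With erlotinib CHIA moved from the last place to the first, at 213, followed by OVGP1 at 186, PIFO at 99.7 and CHI3L2 at 47.2. No library of CHIA with erlotinib (207 to 216) overlapped those of OVGP1 (179 to 192), and none of PIFO (95.3 to 105) overlapped those of CHI3L2 (41.2 to 51.7). In DMSO CHI3L2 (7.15 to 11.0) and OVGP1 (31.1 to 34.4 signal per kb) were also apart. PIFO (1.41 to 2.87) and CHIA (0.40 to 1.38) rest on few reads there and differ in how many exon bases their MANE transcripts leave out, so their order with DMSO is uncertain. Among all tested genes with a known exon length, the level of CHIA per kb stood at percentile 1.24 with DMSO and 68.9 with erlotinib. CHIA was among the tested genes only through its erlotinib libraries. Its place near the bottom with DMSO was therefore set by that filter, and nothing is read from it. Merged exons span 4643 bases of CHIA, and its reference (MANE) transcript 1696. Per kilobase of MANE transcript CHIA stood at 583 and OVGP1 at 214 with erlotinib, so CHIA was first on that scale too.

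Summed over the cluster, signal was 119, 126 and 126 in the DMSO libraries and 2003, 2047 and 1970.4 in the erlotinib libraries. OVGP1 made up most of it in the first group, and CHIA had the largest share in the second. The share of CHIA in the summed signal was 3.14% ± 1.82 with DMSO and 49.2% ± 0.611 with erlotinib, and that of OVGP1 66.6% ± 1.78 and 23.4% ± 0.731 (SD, n = 3). PIFO had 7.19% ± 2.58 and 19.6% ± 0.969, and CHI3L2 23.1% ± 5.12 and 7.75% ± 0.854. Shares per kilobase moved the same way, as the stacked bars show.

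**Figure D2:**
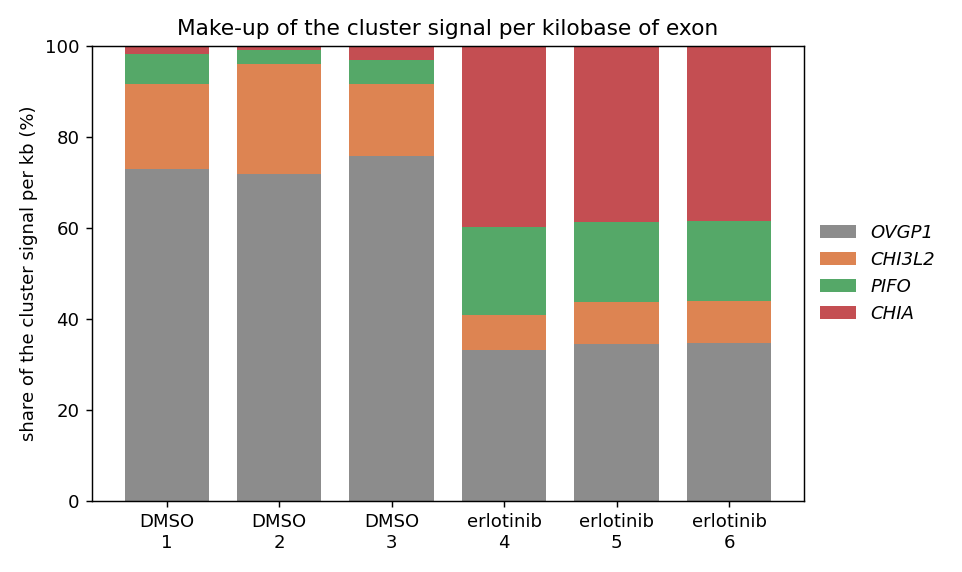
Share (%) of each of the 4 cluster genes in the summed signal per kilobase of merged exons, 1 bar for each library. OVGP1 makes up 73.6% ± 2.02 of the DMSO bars and 34.1% ± 0.857 of the erlotinib bars, and CHIA 1.88% ± 1.09 and 39.0% ± 0.729 (SD, n = 3).

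Some reads of CHIA may come from or be lost to other genes. Of the 50-base stretches of its transcript, 11.9% also occur in the pseudogene CHIAP2, which lies between CHI3L2 and CHIA, or in an unnamed antisense transcript that overlaps 206 bases of CHIA exon. Reads that map to more than 1 place were not counted, and the strand that was counted is not given in the sources used here, so sense and antisense reads cannot be told apart. CHIAP2 itself had 0 reads in each DMSO library and 2, 2 and 1 in the erlotinib libraries, too few for a fold. The transcripts of CHI3L2, PIFO and OVGP1 shared no 50-base stretch with other genes.

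Promoter windows (RefSeq, GRCh38.p14) were available for 6 of the 8 genes, CHIA and OVGP1 not among them. The 250 bases before the first listed start of the 2 cluster genes with an entry are printed here. Both genes were higher with erlotinib, and CHIA lies between them. Capitals mark CG pairs.
CHI3L2: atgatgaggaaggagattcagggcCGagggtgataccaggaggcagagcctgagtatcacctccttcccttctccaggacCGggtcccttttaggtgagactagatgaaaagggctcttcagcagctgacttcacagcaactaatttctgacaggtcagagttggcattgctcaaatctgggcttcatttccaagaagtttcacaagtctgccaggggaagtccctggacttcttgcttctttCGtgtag
PIFO: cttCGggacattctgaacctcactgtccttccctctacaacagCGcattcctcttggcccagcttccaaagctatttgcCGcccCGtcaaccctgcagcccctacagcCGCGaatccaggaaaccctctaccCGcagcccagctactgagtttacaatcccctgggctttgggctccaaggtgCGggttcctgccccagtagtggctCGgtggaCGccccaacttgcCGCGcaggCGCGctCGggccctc
They are at chr1:111227409-111227658 (+) and chr1:111346310-111346559 (+), the latter inside the span given above for PIFO, whose annotation in RefSeq also holds a start further upstream. The CHI3L2 stretch holds 3 CG pairs and the PIFO stretch 15, against a median of 11 over 35116 promoters. The full windows, 250 bases before to 50 after the start, were searched on both strands for the FOX letters GTAAACA, the AP-1 letters TGANTCA, the STAT letters TTCNNNGAA and the STAT6 motif, whose spacer is 1 base longer. Matches of different motifs were allowed to overlap. CHI3L2 held 1 STAT match, TTCCAAGAA, which begins 62 bases before the start and stands in lower case in the printed stretch, and PIFO held none. Of all promoters in the table, 7.66% hold the STAT letters, 6.44% the STAT6 motif, 7.71% the AP-1 letters and 3.42% the FOX letters. The windows of CHI3L1, CHIT1, CTBS and CHID1 held none of the 4 motifs.

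Of the relatives elsewhere, CTBS and CHID1 were well expressed in both groups and moved in opposite directions. CTBS (Entrez 1486, chr1:84549611-84574440, − strand) encodes di-N-acetylchitobiase, the lysosomal enzyme that splits the chitobiose core left from N-linked glycans. Its signal was 483, 579 and 425 with DMSO and 1003, 954 and 942 with erlotinib. The groups were well apart, at 496 ± 77.6 and 966 ± 32.4, and the log2 difference was 0.97 (SE 0.11). Of the 50-base stretches of CTBS, 19.3% also occur in transcripts that overlap it, among them those of SPATA1 on the opposite strand. SPATA1 had 2, 12 and 2 reads with DMSO and 12, 14 and 15 with erlotinib, and it was too low to be tested.

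CHID1 (Entrez 66005, chr11:867859-915214, − strand) encodes the stabilin-1 interacting chitinase-like protein, a lysosomal and secreted member that lacks chitinase activity. It was the only member of the 8 that was lower in every erlotinib library, with a signal of 816, 685 and 789.9 with DMSO and 455, 518 and 478 with erlotinib. The means were 764 ± 69.0 and 484 ± 31.7, and the log2 difference was −0.66 (SE 0.10). Per kilobase CHID1 was the highest of the 8 genes with DMSO (142), where CTBS stood at 71.5. With erlotinib CTBS (139) stood above CHID1 (90.3) and below OVGP1 and CHIA, while PIFO (95.3 to 105) and CHID1 (84.9 to 96.6) overlapped. This order depends on the exon length used. Per kilobase of MANE transcript PIFO stood at 172, CHID1 at 148 and CTBS at 147 with erlotinib.

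CHI3L1 and CHIT1 stayed at or near the bottom. CHI3L1 (Entrez 1116, chr1:203178931-203186704, − strand) encodes YKL-40, a secreted lectin of macrophages and many tumors, and CHIT1 (Entrez 1118, chr1:203216079-203230099, − strand) encodes chitotriosidase, the chitinase of macrophages. CHI3L1 had 1, 13 and 1 reads with DMSO and 3, 8 and 3 with erlotinib, so the groups overlapped and 1 library of each held most of the reads. CHIT1 had 1 read in all, in erlotinib library 4. Neither reached the mean signal of 10 that was needed to enter the test, and a change could not be detected at this depth.

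In total 6 of the 8 genes entered the fit across 14215 genes, CHIA and PIFO only through their erlotinib libraries. Of these, 5 were higher and 1 lower with no overlap between groups, and the same 5 and 1 were past an adjusted p-value of 0.05 in limma. Over all genes tested, 35.3% were called higher and 35.4% lower, while 36.7% had all erlotinib libraries above all DMSO libraries and 36.9% had them all below. Scaling to the total count instead called 6156 genes higher and 3955 lower, against 5012 and 5031 here. Because the members were taken from this contrast, nothing is read from these counts. The median log2 difference of all genes tested was 0.02.

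To see how far the rise extended along the chromosome, every gene of the table within 500 kb of the cluster was taken by position. These were 21 genes without the members, and 9 entered the test. Of the 9, 3 were higher and 4 were lower, near the 35.3% and 35.4% of all genes, and their median log2 difference was −0.20. DENND2D, which encodes a Rab exchange factor and is the nearest tested gene before CHI3L2 (23081 bp), was 429, 401 and 362 with DMSO and 543, 585 and 636 with erlotinib. It rose by 0.56 on the log2 scale (SE 0.11, adjusted p = 0.000117, limma), higher in 3 of 3 libraries but by far less than its neighbor CHI3L2. WDR77, which encodes a partner of the arginine methyltransferase PRMT5 and is the nearest tested gene beyond OVGP1 (12155 bp), was 3367, 3542 and 3350.0 with DMSO and 1131, 1287 and 1215 with erlotinib. WDR77 was lower, at −1.50 on the log2 scale (SE 0.07, adjusted p = 2.2e-13), although OVGP1 next to it was higher.

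Further out on the CHI3L2 side, DRAM2, an autophagy gene, rose by 0.50 (adjusted p = 0.000266) and CEPT1, a phospholipid synthesis gene, by 0.34 (adjusted p = 0.00292). LRIF1, which encodes a chromatin protein of the inactive X chromosome, fell by 0.58 on the log2 scale (adjusted p = 1.6e-06). On the OVGP1 side ATP5PB, a subunit of mitochondrial ATP synthase, was lower at −0.83 (adjusted p = 2.2e-08) and DDX20, a helicase of the SMN complex, at −0.80 (adjusted p = 4.1e-08). RAP1A, a small GTPase (−0.20, adjusted p = 0.0600), and INKA2, a PAK4 inhibitor (0.60, adjusted p = 0.215), did not pass the threshold. None of the 9 came near the 4 cluster genes in size, as the plot by distance shows. The other 12 genes of the window were too low to be tested, and 4 of them were listed at 0 in all 6 libraries.

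**Figure D3:**
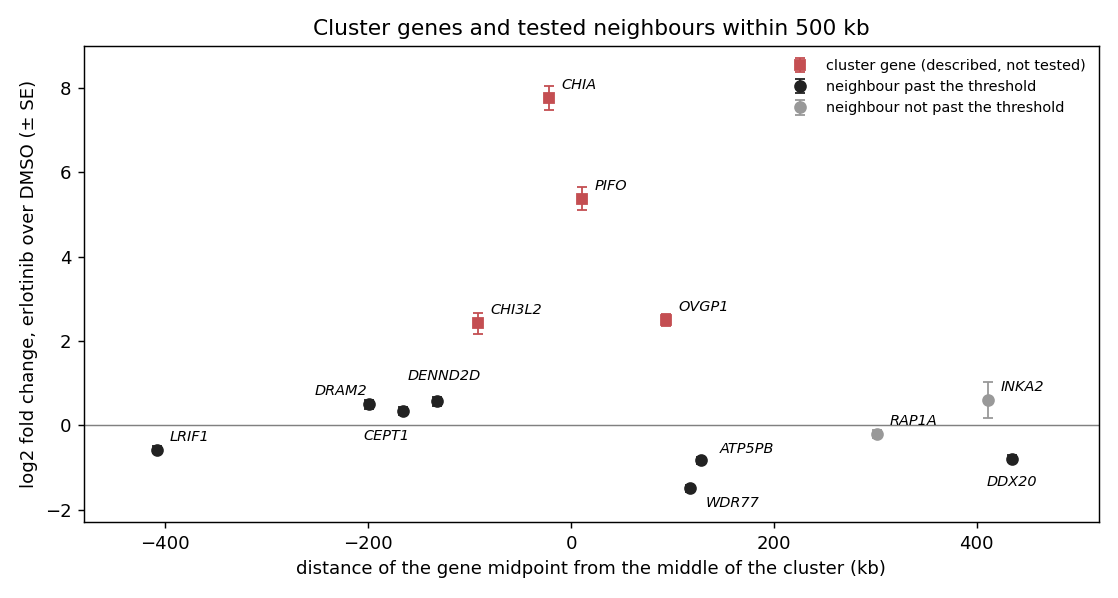
Log2 fold change (erlotinib over DMSO, bars are SE) against the distance in kb of each gene's midpoint from the middle of the cluster, with squares for the 4 cluster genes and circles for the 9 tested neighbors. The 4 cluster genes lie between 2.42 and 7.77, and the neighbors between −1.50 and 0.60.

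The same window around CHI3L1 and CHIT1 held 23 other genes, of which 13 were tested. Here 4 were higher, 2 lower and 7 neither, beside 35.3% higher and 35.4% lower over all genes, and the median log2 difference was 0.15. Of the 4, 2 (SYT2 and PCAT6) entered the test only through the erlotinib libraries. The nearest tested gene, the adenosine receptor gene ADORA1, was 149, 107 and 172 with DMSO and 102, 151 and 119.8 with erlotinib, and the groups overlapped. MYBPH, which follows ADORA1 and overlaps the edge of the CHI3L1 span, was near 0 like CHI3L1 (0.688 ± 0.604 with DMSO and 1.90 ± 0.945 with erlotinib).

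CTBS acts in the breakdown of glycoprotein sugars, so the other enzymes of that pathway were followed. Of 17 listed genes 15 were tested, 11 rose, 2 fell and 2 did not pass, with a median log2 difference of 0.78 against 0.02 for all genes. Of all genes tested 35.3% were higher and 35.4% lower, which is the measure for this list and those that follow. FUCA1, the lysosomal fucosidase, rose from 331 ± 14.5 to 919 ± 59.5 (log2 difference 1.47, adjusted p = 4.6e-11, limma). MAN2B2, a lysosomal mannosidase, rose by 1.43 (adjusted p = 9.2e-12), and ENGASE, which releases N-glycans in the cytosol, by 1.12 (adjusted p = 4.0e-08). HEXA, which removes terminal N-acetylglucosamine and so acts on the same kind of sugar as CTBS, rose by 0.78 (adjusted p = 4.4e-08). FUCA2, the secreted fucosidase and the gene with the most signal in the list, fell by 0.57 (adjusted p = 1.5e-07). NGLY1, the cytosolic glycanase, fell by 0.32 (adjusted p = 0.0109), a call lost without DMSO library 1 (adjusted p = 0.0613) and with scaling to the total count (adjusted p = 0.227). NEU1 was listed at 0 in all 6 libraries.

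Receptors of chitin and of chitinase-like proteins, with the interleukin-4 and interleukin-13 receptor chains, formed the second list. Of 18 genes 11 were tested, 6 rose, 2 fell and 3 did not pass, and the median log2 difference was 0.45. TMEM219, a receptor chain for CHI3L1 that acts with IL13RA2, rose by 1.36 (adjusted p = 1.0e-08), whereas IL13RA2 itself had signal in 1 library only (0.923, erlotinib library 4). STAT6 rose from 3010.0 ± 184 to 6239 ± 22.0, a log2 difference of 1.05 (adjusted p = 1.1e-11), and IL13RA1 by 0.45 (adjusted p = 6.3e-06). IL4R was 1668, 1602 and 1669 with DMSO and 1521, 1617 and 1590.4 with erlotinib, and did not pass (−0.06, adjusted p = 0.454). LGALS3, a galectin known to bind CHI3L1, rose by 0.99 (adjusted p = 8.8e-11). CD44, another binding partner, fell by 0.33 (adjusted p = 0.000119), and of the LysM proteins, a family with a sugar-binding repeat, LYSMD3 was lower at −0.56 (adjusted p = 6.0e-06) and LYSMD1 higher at 0.65 (adjusted p = 0.000322). LYSMD2 and LYSMD4 did not pass, and FIBCD1, a receptor that binds acetylated sugars such as chitin, rose by 0.58 (adjusted p = 0.00123). STAB1, the scavenger receptor for which CHID1 is named, reached no more than 1.86 in any library, and AGER was listed at 0 in all 6.

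For PIFO, the list joined genes of cilium disassembly with relatives that share its repeat. Of 18 symbols 17 were in the table, the other being an older name of CCP110, and 12 were tested, 6 higher, 5 lower and 1 neither, with a median of 0.09. The kinase that pitchfork acts with, AURKA, fell by 2.60, from 3287 ± 107 to 540.3 ± 21.7 (adjusted p = 9.9e-17), the reverse of PIFO. PLK1 (−2.60), KIF24 (−1.94) and NEK2 (−1.79), a mitotic kinase, a centriolar kinesin and a centrosomal kinase that are also cell cycle genes, fell as well. The scaffold of AURKA at the cilium, NEDD9, rose from 98.7 ± 20.7 to 722 ± 86.7 (2.87, adjusted p = 8.8e-13), and HDAC6, the tubulin deacetylase, rose by 0.88 (adjusted p = 4.2e-07). Among the relatives ODF3B rose by 2.24 (adjusted p = 2.1e-07) and STPG1 by 0.35 (adjusted p = 0.0331), while ODF3, ODF3L1, ODF3L2, LEXM and STPG2 were too low to be tested. The call of STPG1 was lost without DMSO library 3 (adjusted p = 0.0881), erlotinib library 5 (adjusted p = 0.142) or erlotinib library 6 (adjusted p = 0.0867).

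For OVGP1, egg coat and oviduct genes were taken. Of 10 genes 5 were tested, 4 rose, none fell and ZP3 did not pass (−0.05, adjusted p = 0.769), with a median of 1.16. MUC1, a cell surface mucin, rose from 419.7 ± 50.1 to 2961 ± 103 (2.82, adjusted p = 3.3e-16). MUC16, another large mucin, was 930.2, 1886 and 964 with DMSO and 2915, 2830.3 and 6997 with erlotinib (1.70, adjusted p = 4.3e-06), and erlotinib library 6 stood far above the others. The estrogen receptor gene ESR1, whose product raises OVGP1 in the oviduct, rose by 1.16 (adjusted p = 0.00128) and the Müllerian lineage factor PAX8 by 0.70 (adjusted p = 2.1e-06). PGR, WT1 and the egg coat gene ZP4 were listed at 0 in all libraries.

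**Figure D4:**
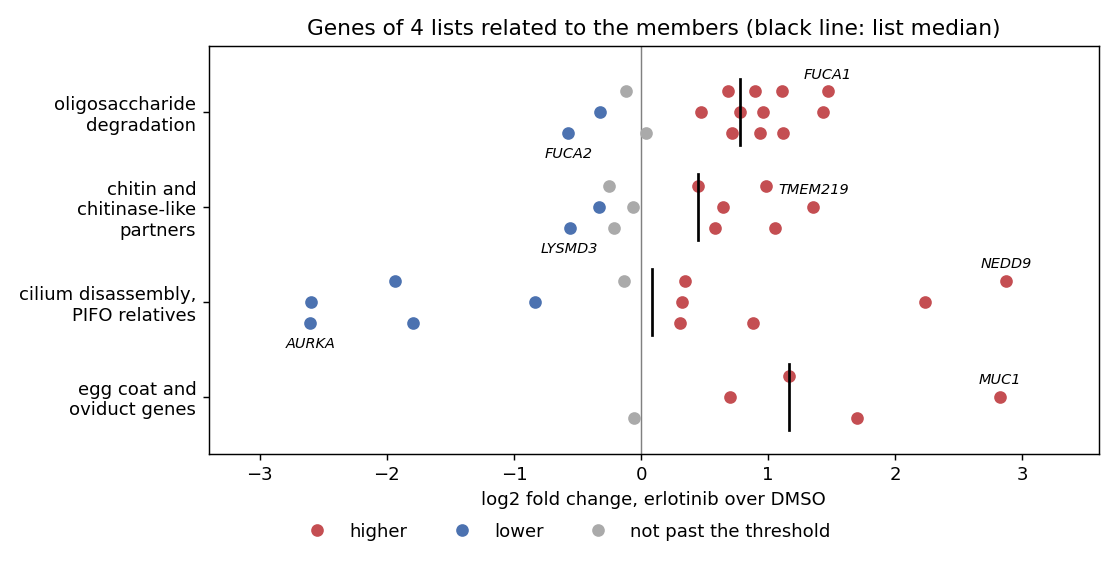
Log2 fold change (erlotinib over DMSO) of each tested gene in the 4 lists, 1 point for each gene, colored by call, with a black line at the list median and the top rise and fall of each list named. The medians are 0.78, 0.45, 0.09 and 1.16 from top to bottom, and the cilium list has the widest span, from −2.60 to 2.87.

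Markers of the cell types in which the 8 genes are usually found were read in the same libraries. Of 13 macrophage markers 2 were tested, CD68 and CSF1R, and AIF1, C1QA, C1QB, MRC1 and TYROBP were listed at 0 in all 6 libraries, PTPRC did not exceed 5.62, and the list's summed signal (2904, 2921 and 3288 with DMSO, 3318, 3649 and 3564 with erlotinib) was almost all CD68. Of 7 gastric chief cell markers, 6 were listed at 0 in every library, and the seventh, BHLHA15, did not pass (log2 difference −0.85, adjusted p = 0.0899). The pepsinogen genes PGA3, PGA4 and PGA5 are near copies of each other, so reads shared between them would not be counted and their zeros are uncertain. CD68, which many cell types make in their lysosomes, rose by 0.23 (adjusted p = 0.00762), and CSF1R did not pass (−0.43, adjusted p = 0.0550).

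Ciliated and alveolar markers are given beside the 35.3% of all tested genes called higher. Of 14 ciliated cell markers 9 were tested, HYDIN did not pass (−0.12, adjusted p = 0.859) and 8 rose, among them FOXJ1, the master regulator of motile cilia, at 2.27, 1.86 and 0 with DMSO and 159, 145 and 142 with erlotinib (6.15, adjusted p = 7.0e-10, limma). Their summed signal was 185, 203 and 216 with DMSO and 895, 839 and 924 with erlotinib, CCDC39 had the most signal with DMSO (66.4 ± 14.3) and CAPS with erlotinib (316 ± 16.7), and the axonemal dynein gene DNAI2 was listed at 0 throughout. FOXJ1 and DNAI1 reached the mean signal of 10 only through the erlotinib libraries, so they could enter the test only by being higher there, and nothing is read from the count of rises. Of the 5 not tested, TEKT2 and DNAH9 did not exceed 4.28 in any library. Of 10 alveolar type 2 markers 6 were tested and those 6 rose, SFTPA2 having entered only through the erlotinib libraries, with a summed signal of 4414, 4263 and 4701 against 13923, 13283 and 13705, led by NKX2-1, the lung lineage factor. SFTPC, the defining surfactant gene, did not exceed 1.87 in any library, and it was 1 of the 4 too low to be tested. Of 10 airway secretory markers 3 were tested and 1 rose, the immunoglobulin transporter gene PIGR (5.93, adjusted p = 7.9e-15). The list summed to 947, 893 and 1016 with DMSO and 1894.5, 2017 and 2077 with erlotinib, on average MUC5B had the most signal with DMSO (908 ± 56.0) and PIGR with erlotinib (1080.2 ± 102), and SCGB1A1, SCGB3A2 and LTF were listed at 0 in all libraries. The part of these markers in the rise of the cluster was not tested.

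The genes whose profile over the 6 libraries was most like each member's were found as the smallest root mean square difference of centered log2(signal + 1) values, which mostly reads the size of the difference between the groups. For CHIA the closest were BIRC7 (0.892), NKAIN4 (0.999) and PIGR (1.19). BIRC7 was listed at 0 with DMSO and at 94.1, 56.4 and 76.8 with erlotinib, and NKAIN4 at 0 and then 64.6, 58.4 and 58.0. PIFO was closest to PRRT1B (0.227), DEPP1 (0.266) and KRT3 (0.307). The closest to CHI3L2 and OVGP1 were nearer, with NCOA7, PLCB1 and CREBRF at 0.121 to 0.133 from CHI3L2, and NDRG4, PAPLN and CTSF at 0.0606 to 0.0729 from OVGP1. Among the closest to CTBS were CPLANE1 and SIAE, and the closest to CHID1 were COL4A2, RPS6KB2 and LAD1. None of these is a member of the cluster or of the 4 lists.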

How the data were processed

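HCC827 cells were profiled by RNA-seq in 6 libraries, 3 with DMSO and 3 with 1 μM erlotinib for 24 h. The authors aligned paired-end reads to GRCh38 with Bowtie2 2.3.4, which does not split reads across introns, counted uniquely mapped reads with featureCounts 1.6.3 and tested them with DESeq2 1.18.1. The deposited values are signal, reads divided by 1 size factor per library, although the table is titled as raw counts. Multiplied by that factor, every value came out whole (within 0.01), so reads could be recovered. The division and the counted strand are not given in the sources used here.

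The 14215 genes whose mean signal reached 10 were fitted with limma 3.58.1 (R 4.3.3), with trend, on log2(signal + 1), with two-sided tests, Benjamini-Hochberg adjustment over all of them and a threshold of 0.05. The fit was tested on simulated data. Log2 differences understate the change of low genes. Alternatives were edgeR 4.0.16 and DESeq2 1.42.0 on recovered reads, limma-voom, total-count scaling, pseudocounts of 0.1 and 10, no filter, at least 10 reads in every library, an adjusted p under 0.01, windows of 250 and 1000 kb, and each library left out.

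The members, lists and tests were chosen with earlier results of these data known. Named genes are the 8 members, tested genes within 500 kb of the cluster, up to 4 top rises and falls of each list with those close in role to a member, and the 3 genes most like each member. ADORA1, MYBPH, SYT2, PCAT6, the list genes named at 0 or as untested, the marker genes and the overlapping genes were named outside that rule. Some single genes are not reported here, but they stay in the counts. Positions and promoters came from RefSeq and transcripts from GENCODE 44. Exon length was known for 97.7% of tested genes and position for 99.2%. Of all rows, 475 carry no symbol and were kept.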

Additional observations from a re-analysis of the deposited data

How the results depend on the processing

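None of the 6 tested members changed direction under any alternative that could fit it. CHI3L1 and CHIT1, too low to be tested, were not followed under the alternatives. Of 82 values of the 6 tested members under alternatives, 75 stayed within 1 replicate SD of the reported one, 7 moved by more and 0 reversed. With a pseudocount of 10, the log2 differences were 6.18 for CHIA, 4.43 for PIFO, 2.11 for CHI3L2 and 2.37 for OVGP1. With total-count scaling, which shifted the median of all genes to 0.19, they were 2.67 for OVGP1, 1.15 for CTBS and −0.48 for CHID1, so against that median CHID1 was still lower. Leaving out each library gave 7.44 to 8.12 for CHIA, 5.11 to 5.56 for PIFO and 2.3 to 2.60 for CHI3L2. CHIA and PIFO could not be fitted under the minimum of 10 reads in every library, because their DMSO libraries hold fewer.

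Of the neighbors, 5 were higher and 6 lower of 14 tested within 1000 kb, and 3 were higher and 2 lower of 6 tested within 250 kb. Oligosaccharide degradation genes that were lower numbered 1 with total-count scaling and 1 at an adjusted p under 0.01, and 1 to 3 with a library left out, the lowest without DMSO library 1. INKA2 passed without DMSO library 1 (1.03, adjusted p = 0.0442), and RAP1A without DMSO library 1 or 3 or erlotinib library 4 (adjusted p = 0.0432 to 0.0495). LYSMD2 passed without DMSO library 1 (−0.39, adjusted p = 0.0159). STPG1 was lost without DMSO library 3 or erlotinib library 5 or 6, and TTBK2 without erlotinib library 6. With total-count scaling the values of IL4R, KIF2A and ZP3, which were not past the threshold, changed sign. The counts of genes higher ranged from 4323 to 6156 and of genes lower from 3955 to 5096.

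The 11 DMSO reads of CHIA limit the precision of its fold. No paired analysis was possible because the erlotinib columns, numbered 4 to 6, cannot be tied one by one to the erlotinib samples, whose titles carry the numbers 1 to 3 as those of DMSO do.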
